A study of Mus musculus with 4 samples.

Results

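The dual specificity MAP kinase phosphatases described here are 7 genes, Dusp1, Dusp2, Dusp4, Dusp6, Dusp10, Dusp14 and Dusp16. They were looked up by gene symbol or gene ID in the deposited table of 22626 probe sets (a probe set is the group of Affymetrix probes that reads 1 transcript or a few). For 6 of the 7 genes there were 7 probe sets, 2 of them for Dusp10, and Dusp4 was not analysed here. RNA from mouse fat was measured on 4 arrays, 1 for each group: primary adipocytes cultured from visceral fat with DMSO vehicle, the same kind of culture with 10 µM forskolin, whole epididymal fat of chow-fed control mice, and whole epididymal fat of mice kept 12 weeks on a 60% high fat diet. Cultures were harvested after 2 h. The labels name no strain, age or number of animals, and do not say whether animals or dishes were pooled; the table's headers mark the fat arrays as WT. With 1 array per group there was no replicate to check any value against, so no test was run and precision is limited by that number of arrays.

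MAP kinases (ERK, JNK and p38) are switched on by phosphorylation of a threonine and a tyrosine. Dual specificity phosphatases remove both phosphates and so switch the kinases off. Several of these phosphatases are immediate early genes that are transcribed within minutes of a stimulus, which makes them feedback brakes, and they differ in where they sit in the cell and in which kinase they prefer. Forskolin, a plant compound, activates adenylyl cyclase and raises cAMP, the signal by which catecholamines start lipolysis in fat cells.

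In the forskolin comparison, Dusp14 and Dusp2 were higher with forskolin, Dusp6 was lower, and Dusp10 and Dusp16 lay within 1.5-fold. In the diet comparison, Dusp2 was the only one of the 6 measured genes that was at least 2-fold apart. It was 7.16-fold higher after high fat feeding. Differences of this size were common there, with 12.2% of all 12939 genes above chow by such a margin and 7.43% below. A count of 1 in 6 therefore does not set the phosphatases apart from other genes. Dusp1, Dusp6, Dusp14 and Dusp16 lay within 1.5-fold on the diet. Dusp10 was 1.73-fold higher by its brighter probe set, below the level filter. A gene passes this filter by reaching the median gene intensity on whichever array of the pair shows it brighter. Dusp14 and Dusp2 were below it in the forskolin comparison, and Dusp2 passed it on the diet through the high fat array alone. Dusp1, which cAMP is known to induce in several cell types, has no forskolin value in the deposited table. A fold is the ratio of 2 intensities on a linear scale, and 1 array cannot separate it from the spread between cultures or mice.

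**Figure D1:**
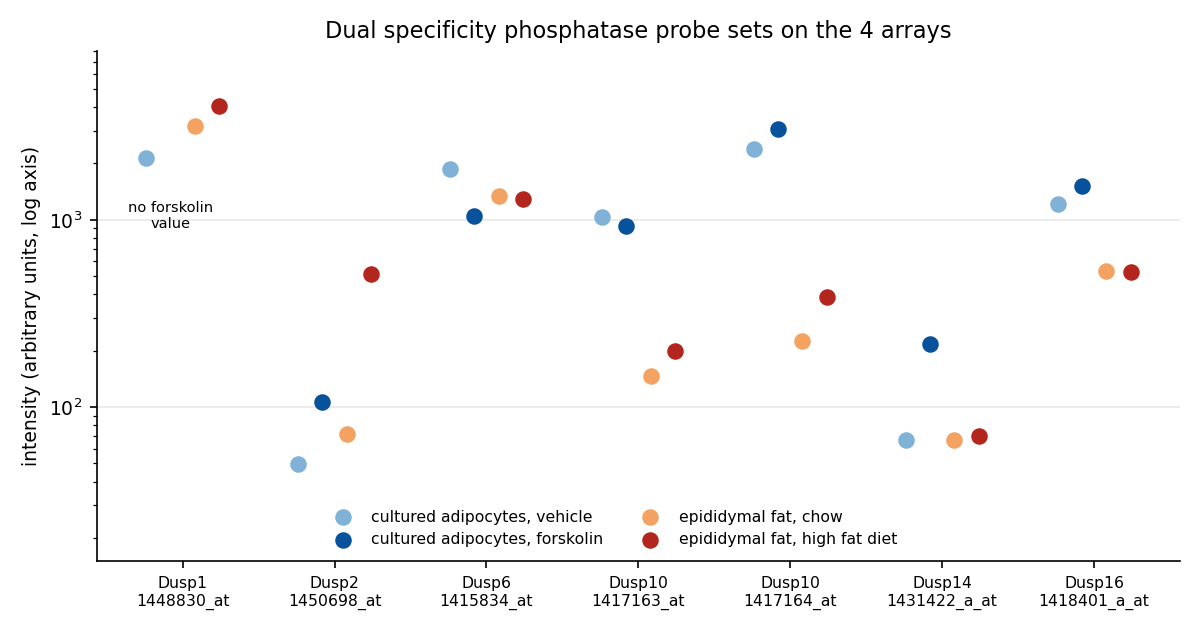
Intensity (arbitrary units, log axis) of each of the 7 probe sets on the 4 arrays, 1 point per array. Dusp2 is highest on the high fat array at 512, Dusp14 is highest on the forskolin array at 218, and both Dusp10 probe sets are higher on the 2 culture arrays than on the 2 fat arrays.

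The promoters of Dusp1 and Dusp2 are shown because the authors' deposited table puts these genes in its class of genes with a predicted cAMP response element (CRE, the DNA site bound by CREB) and a TATA box, and that of Dusp14 because this gene had the highest forskolin fold of the measured members yet carries the class named "others". Each window runs from 250 bases before to 50 bases after the annotated start of the gene in RefSeq (build GRCm38.p6), and 6 of the 7 genes had one. Capitals mark every copy of TGACG, the core of the CRE, on either strand (CGTCA when read on the strand shown).
Dusp1, chr17:26508423-26508722, minus strand: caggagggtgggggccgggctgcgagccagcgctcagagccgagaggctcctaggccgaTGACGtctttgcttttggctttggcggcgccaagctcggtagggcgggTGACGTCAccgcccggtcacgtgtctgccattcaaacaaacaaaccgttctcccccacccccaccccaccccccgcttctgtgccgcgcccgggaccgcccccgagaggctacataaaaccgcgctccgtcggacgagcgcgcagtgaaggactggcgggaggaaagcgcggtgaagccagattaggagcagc
Dusp2, chr2:127335909-127336208, plus strand: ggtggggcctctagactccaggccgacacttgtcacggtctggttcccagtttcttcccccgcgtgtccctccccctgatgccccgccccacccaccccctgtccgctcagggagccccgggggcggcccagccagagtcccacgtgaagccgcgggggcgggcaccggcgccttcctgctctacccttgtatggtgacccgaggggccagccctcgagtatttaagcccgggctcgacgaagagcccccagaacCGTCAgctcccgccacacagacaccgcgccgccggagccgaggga
Dusp14, chr11:84068308-84068607, minus strand: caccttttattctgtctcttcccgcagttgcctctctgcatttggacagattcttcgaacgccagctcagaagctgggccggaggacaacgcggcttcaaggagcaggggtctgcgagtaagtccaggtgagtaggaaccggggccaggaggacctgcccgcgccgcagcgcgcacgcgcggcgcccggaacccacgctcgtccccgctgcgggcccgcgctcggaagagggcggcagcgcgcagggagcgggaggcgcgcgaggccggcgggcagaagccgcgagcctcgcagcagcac
The Dusp1 window held 1 full palindrome TGACGTCA, which begins 143 bases before the start, and a further TGACG that begins 191 bases before it. TGACGTCA contains TGACG on both strands, so the window holds 3 core sites in all. The full palindrome was present in 1.79% and the core site in 20.8% of 32851 windows of the same length. The Dusp2 window held 1 core site, 5 bases past the start, and the Dusp16 window 1 core site, 70 bases before it. The windows of Dusp6, Dusp10 and Dusp14 held no core site. None of the 6 windows held TATAA on either strand, which 24.9% of all windows did. Only this exact sequence was searched, so other forms of a TATA box were not counted and the authors' class was not tested. These matches describe letters in short windows and show nothing about binding.

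The inducible nuclear phosphatases come first. Dusp1, also called MKP1, acts on p38 and JNK as well as ERK, and is widely induced by stress, hormones and cAMP. Its intensity (probe set 1448830_at) was 2147 in vehicle-treated adipocytes, 3164 in chow fat and 4032 in high fat diet fat, and the forskolin cell is empty. No forskolin fold can be given for it, and the table lists no fold of the authors' either. High fat diet fat had Dusp1 1.27-fold higher, a log2 difference of 0.35. The median was 0.05 over all 12939 genes with both values and 0.17 over those at or above the level filter, as Dusp1 was. The authors' deposited table bounds this fold at 1.19 and 1.37, at a confidence level that the sources used here do not give. After quantile normalization of the 4 arrays, which gives each array the same distribution, the log2 difference was 0.01, and the median over all genes was -0.11.

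Dusp2, also called PAC1, is a nuclear phosphatase known mainly from activated lymphocytes and myeloid cells. Its intensity (1450698_at) was 49.8 with vehicle and 106 with forskolin in the cultures, and 71.5 in chow fat and 512 in high fat diet fat. The vehicle array was lowest and the high fat array highest, 10.3 times as high. With forskolin it was 2.13-fold higher, but both culture values lay below the level filter (306.8 on the vehicle and 306.3 on the forskolin array). The authors' deposited table bounds the forskolin fold at 1.21 and 7.23, the widest among the measured members. With 16 added before log2 its forskolin log2 difference was 0.89, under the 2-fold threshold. After high fat feeding it was 7.16-fold higher, with authors' bounds of 5.55 and 9.92. It passed the filter in that comparison (422 on the high fat array) through the high fat array alone, so it had to differ in order to pass.

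Of the 6 members compared on the diet, 4 were at or above the filter and 1 of these, Dusp2, was at least 2-fold higher. The background was high: of all 7183 genes at or above the filter, 15.6% were 2-fold or more higher and 5.97% 2-fold or more lower. Over all genes with both values, 98.3% had a diet difference below that of Dusp2. The members' median log2 difference was 0.21, against 0.05 over all genes and 0.17 over the genes at or above the filter.

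Leukocyte markers moved with Dusp2 in the fat arrays. As background, 12.2% of all genes with both values were at least 2-fold higher in high fat diet fat and 7.43% at least 2-fold lower. Of 12 macrophage markers, 10 were at least 2-fold higher. The summed intensity of the 12 was 16116 in chow fat and 73937 in high fat diet fat. Of the T cell markers 5 had both values, of which 3 were at least 2-fold higher and 1, Cd4, 2.08-fold lower below the level filter. Their summed intensity was 721 and 4610.5, most of the latter from the receptor gene Il7r, while Cd3e, part of the T cell receptor, had 252 and 549. Of 6 B cell markers 5 were at least 2-fold higher, 2 of these at or above the level filter. Their sums were 1230.2 and 11605, most of it from the immunoglobulin gene Ighm. Of the mast cell markers 5 had both values and 4 were at least 2-fold higher, with sums of 808 and 4414. None of these markers was at or below the floor on either fat array. The chow values of Trem2, Cd79b and Mcpt4 were 26.8, 27.9 and 29.1, close to the chow floor of 25.1. The part of the leukocyte markers in the Dusp2 value was not tested. Median log2 differences of the other tissue markers on the diet were -0.32 for endothelial, -1.14 for mesothelial, -1.03 for smooth muscle and 0.70 for fibroblast genes. In whole tissue, more cells of a type and more RNA per cell cannot be told apart.

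In the cultures, where Dusp2 had its lowest value with vehicle, few leukocyte markers reached the level filter. Of 12 macrophage markers 4 did, of 6 B cell markers 1, Ighm, and of 7 T cell and 6 mast cell markers none. None of these leukocyte markers was at least 2-fold apart between forskolin and vehicle. The summed intensity with vehicle and with forskolin was 5673 and 6036 for the macrophage markers, 826 and 705 for the T cell markers, 2316 and 2285 for the B cell markers and 329 and 323 for the mast cell markers. Their part in the forskolin value of Dusp2 was not tested. Of 9 measured adipocyte markers, 8 were at or above the filter in the cultures and 8 in the fat arrays, among them Adipoq with 10261 in the vehicle culture and 10456 in chow fat. All 9 lay within 1.5-fold with forskolin. In the diet comparison the summed adipocyte marker intensity was 61799 in chow fat and 50079 in high fat diet fat. Of the 9 markers 5 lay within 1.5-fold, and the median log2 difference was -0.11. The others were Retn, Cfd and Pparg, 3.48-fold, 2.13-fold and 1.83-fold lower, and Lep, 6.83-fold higher, on the array where Dusp2 was higher.

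Dusp6, also called MKP3, is the cytoplasmic phosphatase that prefers ERK and is itself induced by ERK signalling. Its intensity (1415834_at) was 1877 with vehicle and 1050.0 with forskolin, against 1339 in chow fat and 1286 in high fat diet fat. The forskolin array was lowest and the vehicle array highest. With forskolin it was 1.79-fold lower, with authors' bounds of 1.62 and 1.98, so the fold did not reach 2. Of the 6704 genes at or above the filter, 0.641% were at least 1.5-fold lower with forskolin, and 1.78% of all 13051 genes with both values had a lower difference than Dusp6. On the diet it was 1.04-fold lower, and the authors' bounds lay on both sides of 1. The diet log2 difference was -0.06 as deposited and -0.36 after quantile normalization, where the median over all genes was -0.11. The log2 difference for forskolin ranged from -0.84 to -0.82 under the alternatives run.

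Dusp10 (MKP5) and Dusp16 (MKP7) prefer JNK and p38 over ERK. The brighter Dusp10 probe set, 1417164_at, had 2399.5 with vehicle and 3066 with forskolin, and 224 in chow and 389 in high fat diet fat. The second, 1417163_at, had 1031, 928, 146 and 200.4 in the same order. Both were several times higher on the culture arrays than on the fat arrays. The probe sets differed in direction with forskolin, 1.28-fold higher by the first and 1.11-fold lower by the second, so no direction is given for Dusp10 there. On the high fat diet both were higher, 1.73-fold and 1.37-fold, below the level filter. The authors' bounds for the second lay on both sides of 1, at 0.93 and 2.27.

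Dusp16 (1418401_a_at) had an intensity of 1219.8 with vehicle and 1524 with forskolin, and of 531 in chow and 529 in high fat diet fat. It was 1.25-fold higher with forskolin, with authors' bounds of 1.17 and 1.33. The diet log2 difference was -0.01 as deposited and -0.25 after quantile normalization, where the median over all genes was -0.11. The culture arrays were the higher ones for this gene as well.

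Between the sources, vehicle-treated cultures had 10.7 times the chow fat intensity of Dusp10 by the first probe set and 7.06 times by the second, and 2.30 times that of Dusp16. After quantile normalization these ratios were 10.9, 7.36 and 2.21. Dusp1, Dusp2, Dusp6 and Dusp14 lay within 1.5-fold between these arrays as deposited, and Dusp1 was 1.76-fold lower in the vehicle culture after quantile normalization. As background, 12.3% of 12975 genes were 2-fold or more higher in the vehicle culture than in chow fat and 17.1% 2-fold or more lower. The cultures differ from the tissue in cell makeup, in growth outside the animal and in the experiment they belong to, and these cannot be told apart.

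Dusp14, also called MKP6, is a small phosphatase that lacks the docking domain of the larger members. Its intensity (1431422_a_at) was 67.1 with vehicle and 218 with forskolin, and 67.0 in chow and 70.3 in high fat diet fat. The forskolin array stood above the other 3, which lay close together. With forskolin it was 3.25-fold higher, the highest fold of the 5 genes compared, with authors' bounds of 2.58 and 4.31. Both values lay below the level filter, as for Dusp2. On the diet it was 1.05-fold higher. The sign turned when the arrays were centred on the median of all genes (log2 difference -0.14), where the median difference over all genes was -0.15.

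Of the 5 members compared for forskolin, 3 were at or above the filter and none of these was 2-fold apart in either direction, where 1.22% of all genes at or above it were 2-fold or more higher and 0.134% 2-fold or more lower. The other 2, Dusp2 and Dusp14, were both at least 2-fold higher. Among all 6347 genes below the filter, 2.68% were 2-fold or more higher and 2.1% 2-fold or more lower, and over all 13051 genes these shares were 1.93% and 1.09%. The members' median log2 difference was 0.35, against 0.00 over all genes. That median is the value of Dusp10 by its brighter probe set. The second Dusp10 probe set had -0.15, so the median gives no direction for the members. Dusp14 lay above 99.5% and Dusp2 above 98.5% of all genes with both values.

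**Figure D2:**
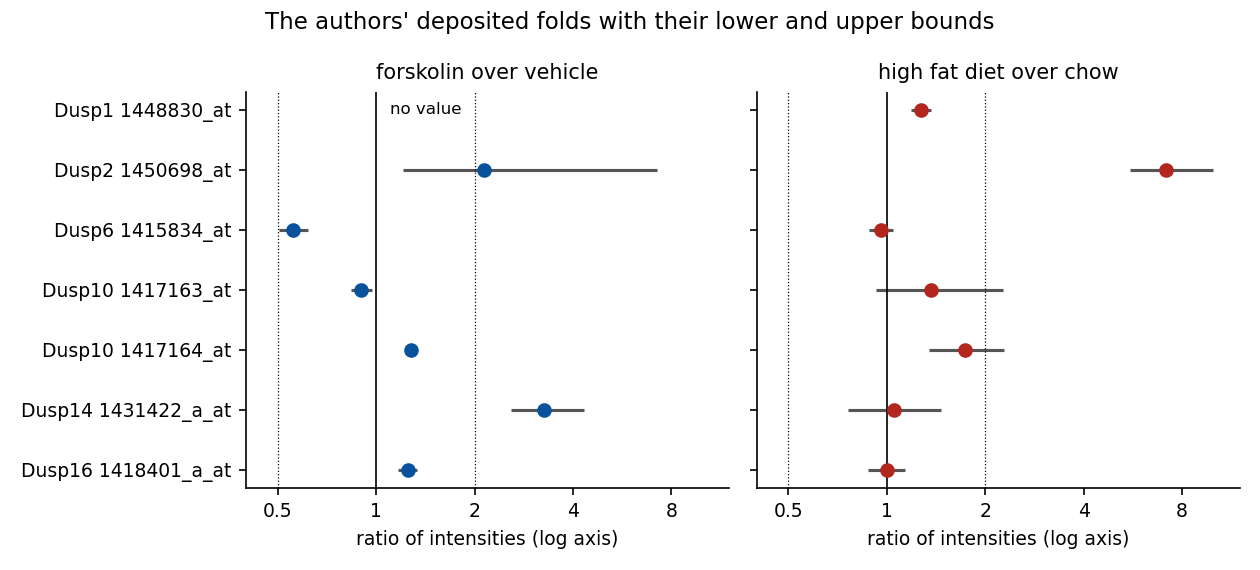
The authors' deposited fold for each probe set as a ratio (log axis), with a line from the lower to the upper bound, for forskolin over vehicle (left) and high fat diet over chow (right). Dotted lines mark 2-fold, and the bounds of Dusp14 with forskolin (2.58 to 4.31) and of Dusp2 on the diet (5.55 to 9.92) lie wholly above 2.

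The authors' bounds come from single arrays, so that differences between cultures or between mice are not part of them. For forskolin they lay on 1 side of no change for all 6 probe sets with a value, including both Dusp10 probe sets, which point in opposite directions. The deposited CRE class was CRE_TATA for Dusp1 and Dusp2 and "others" for the other 4 genes. Of all genes with a class, 9.66% were CRE_TATA and 74.9% others. Dusp14, with the higher forskolin fold, was thus in the class "others", and Dusp2 in CRE_TATA. The sources used here do not say how the classes were made.

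**Figure D3:**
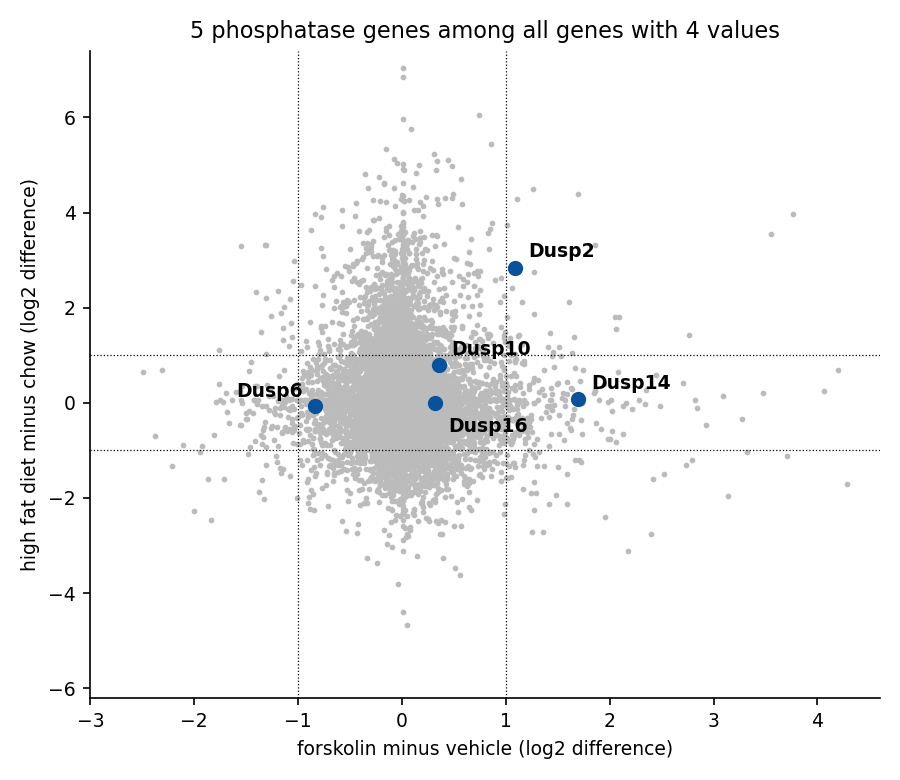
Log2 difference of forskolin minus vehicle (horizontal axis) and of high fat diet minus chow (vertical axis) for all 12883 genes with values in both comparisons (grey) and the 5 phosphatase genes among them (blue). Dusp2 is the 1 member past 2-fold (dotted lines) on both axes, Dusp14 is past it for forskolin alone, and Dusp1 is not drawn for want of a forskolin value.

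Dusp2 was thus at least 2-fold higher in both comparisons, and below the level filter in the first. No member was at or above the filter in both comparisons and at least 2-fold apart in either, so no genes were named for likeness to a member.

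Of 16 other listed dual specificity phosphatases 12 were measured, and 11 lay within 1.5-fold with forskolin, near the background of 90.0% of all 13051 genes. The exception was Dusp8, another phosphatase of JNK and p38, with 286 and 474, a 1.66-fold higher value. In the diet comparison 2 of the 12 were higher by 2-fold or more and 2 lower by as much, against 12.2% and 7.43% of all genes. All 4 were below the level filter, and among genes below it 7.89% were higher and 9.26% lower by this measure. Among these 4 phosphatases Dusp7, a cytoplasmic ERK phosphatase and a close relative of Dusp6, was 3.67-fold higher by 1 probe set. Each of its other 2 probe sets was higher by a log2 difference of 0.43. Dusp15, whose chow value was at the floor, had a fold of at least 2.07, Dusp13 was 2.20-fold lower and Dusp18 2.47-fold lower. Dusp7, Dusp8, Dusp13, Dusp15 and Dusp18 were named after their values were seen.

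Genes of the kinase pathways on which the phosphatases act were near that background with forskolin. All 20 genes of the ERK module (adaptors, Ras, Raf, MEK, ERK and RSK kinases) lay within 1.5-fold, as did 18 of 19 genes of the JNK and p38 module (the exception, Map2k6, was 1.68-fold lower below the filter) and all 10 measured inhibitors of Ras and ERK signalling, which include the sprouty genes. Their median log2 differences were -0.03, -0.02 and -0.01, against 0.00 over all genes. Immediate early genes, by contrast, included 11 of 20 that were 2-fold or more higher and none that was 2-fold lower. Over all 13051 genes these shares were 1.93% and 1.09%. The median log2 difference of the immediate early genes was 1.06. Besides Fos and Nr4a1, the AP-1 gene Fosb was 5.06-fold higher (327 and 1654) and the antiproliferative gene Btg2 4.23-fold higher (1473 and 6235).

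In the diet comparison, 4 of 20 ERK module genes were at least 2-fold higher and none 2-fold lower. Of all genes, 12.2% were that much higher and 7.43% that much lower. At or above the filter, 3 of 16 module genes were 2-fold or more higher, against 15.6% of all such genes. The list's median log2 difference was 0.44, against 0.05 over all genes and 0.17 over genes at or above the filter. Rps6ka1, an RSK kinase activated by ERK, was 4.40-fold higher (299.7 and 1319.7), and the adaptor gene Grb2 3.92-fold higher (647 and 2541). The adaptor gene Shc1 was 2.05-fold higher, which fell below 2-fold after quantile normalization (log2 difference 0.85). With the median over its probe sets the log2 difference was 1.68. In the JNK and p38 module 2 of 19 were at least 2-fold higher, both below the filter. Among the inhibitors, Rasa1, a Ras GTPase activating protein, was 2.66-fold higher, and Errfi1, an inhibitor of the EGF receptor, 2.37-fold lower by its main probe set, with a log2 difference of -0.23 when the median over its probe sets was taken. Of the immediate early genes 7 of 20 were higher by 2-fold or more and 2 lower. Atf3 was 20.9-fold, Egr2 19.5-fold, Fos 11.8-fold and Ier5 5.36-fold higher. Their chow intensities were 165, 74.1, 295 and 263, under the chow filter level of 365, as was that of Rps6ka1. These genes passed the filter through the high fat array alone, so they had to differ in order to pass. The leukocyte markers given above moved in the same arrays, and their part in these values was not tested.

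**Figure D4:**
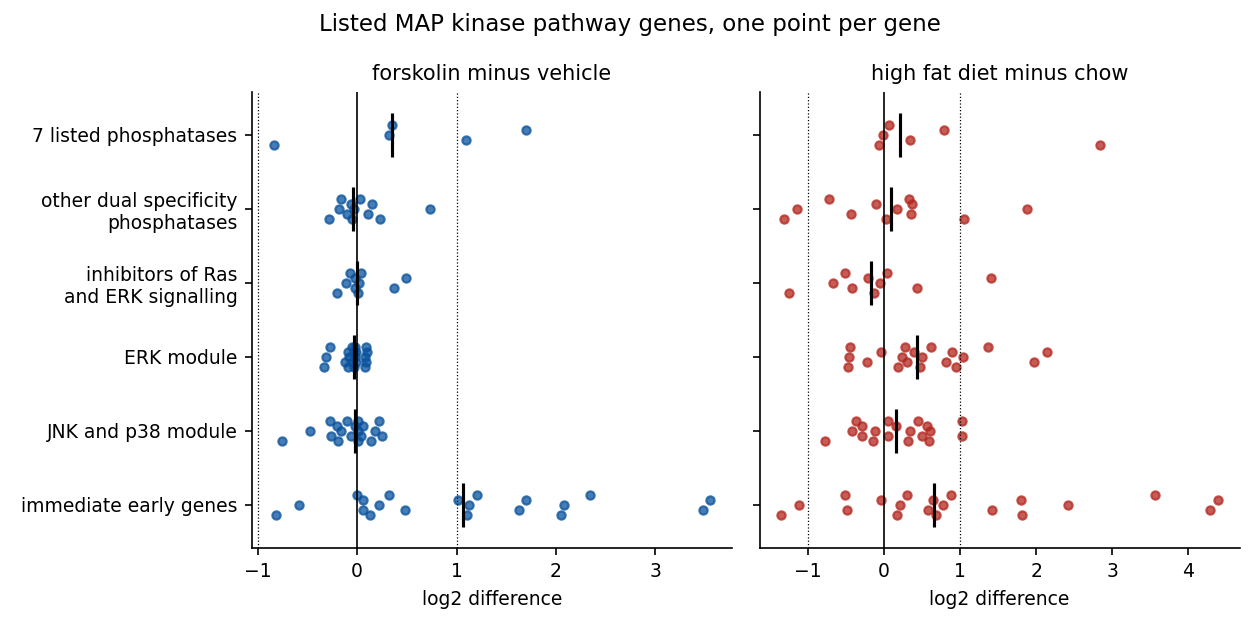
Log2 differences of the listed genes for forskolin minus vehicle (left) and high fat diet minus chow (right), 1 point per gene, with a black bar at the median of each list and dotted lines at 2-fold. With forskolin the ERK, JNK and p38 modules stay near 0 while the immediate early genes have a median of 1.06. The phosphatases have medians of 0.35, which is the value of Dusp10 by its brighter probe set, and 0.21.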

How the data were processed

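RNA was measured on Affymetrix arrays, 1 for each of the 4 groups. Per the labels' protocols, total RNA was extracted with Trizol, cleaned on a column and labelled with biotin. The authors deposited 1 linear intensity value per probe set and array. The sources used here do not give the software, the background correction or the normalization. The deposited table with folds repeats the same intensities (90504 of 90504 cells equal). Its signed folds and bounds are the authors' own score for each comparison, per the file headers, and are negative where the second array is lower.

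Empty cells were left out (74 on the forskolin array). Before log2, values under an array's 10th percentile were set to it (22.1 and 22.2 for vehicle and forskolin, 25.1 and 26.0 for chow and high fat diet), and no value of the 7 genes was at the floor. A fold against that floor is a bound. Gene names came from the gene ID, symbol or synonym in RefSeq (GRCm38.p6). Each of 13108 genes was represented by 1 probe set, the brightest on average among those with the fewest empty cells, and all probe sets of the 7 genes were described. Called means at least 2-fold. Median intensities ran from 236.5 to 314. No p-value was computed. The steps were tested on simulated data with known changes (Python 3.11.15, pandas 2.3.3).

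The genes and lists were chosen with earlier results of these data known. The named genes were all probe sets of the 7 genes, up to 4 genes per pathway list and comparison that were at or above the filter and at least 2-fold apart, and the nearest genes to each qualifying member. The alternatives were other fold thresholds and level filters, quantile normalization, centring, 16 added before log2, the median over probe sets and the authors' folds.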

Additional observations from a re-analysis of the deposited data

How the results depend on the processing

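Of the counts of members at least 2-fold apart, forskolin gave 2 higher without the level filter and 0 with it, and 1 lower at a threshold of 1.5. The diet count of 1 higher became 0 with the filter at the 75th percentile. Over the 5 pathway lists together, the 11 genes higher on the diet became 21 at a threshold of 1.5 and 18 with the median over probe sets. The 2 lower became 0 at a threshold of 3, 1 at the 75th percentile, 1 with the median over probe sets and 5 without the filter. With forskolin the 11 higher became 7 at a threshold of 3, and the 0 lower became 2 at a threshold of 1.5. The other 57 counts were within 1.5 times the main count, and all 55 alternative values of single members stayed within 1.5-fold of their main value. The cause was the threshold, the filter or the probe sets that each alternative changed. No called member changed direction. No paired analysis was possible because each group holds 1 array. Depth is not defined for these arrays, and the signal of Dusp2 and Dusp14 below the level filter limits what their folds show.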

Other observations

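Dusp1 was 1 of 74 probe sets with an empty forskolin cell. Of these, 52 had a vehicle value, with a median of 127, and the vehicle value of Dusp1, 2147, was the highest among them. The sources used here do not say why a cell is empty.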
